A study of Mus musculus with 12 samples.

Results

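The immediate early genes described here are 10 genes that cells switch on quickly after growth factors, stretch or stress: Fos, Jun, Junb, Atf3, Egr1, Myc, Ier2, Ier3, Ccn1 and Ccn2. They were taken by name, each matched by its Ensembl gene ID to a mouse symbol, and all 10 were found among the 55416 gene IDs and passed the filter on low counts that left 17702 genes for testing. Poly-A RNA was sequenced from E14Tg2a.4 mouse embryonic stem cells, a single established line grown in serum and leukemia inhibitory factor, in which every group carried Rpl31-FTA, a large-subunit ribosomal protein fused to FLAG, a TEV protease site and AviTag. ALIBi, a proximity-labelling enzyme system, biotinylated tagged ribosomes close to the endoplasmic reticulum (ER). The 4 groups, each of 3 biological replicates, were RNA bound to purified ER-labelled ribosomes after Lsg1 siRNA, whole-cell RNA after Lsg1 siRNA, ER-bound RNA after scramble siRNA, and whole-cell RNA after scramble siRNA. The whole-cell RNA came from aliquots of the lysates used for the purification, and the lysis buffer of all groups held cycloheximide, which arrests elongating ribosomes. Lsg1 encodes a GTPase of late large-subunit maturation.

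Immediate early genes are transcribed from factors already present in the cell, among them serum response factor, CREB and, for the CCN genes, YAP with TEAD proteins. Fos, Jun, Junb and Atf3 encode leucine-zipper proteins that pair into AP-1 and related dimers, Egr1 a zinc-finger activator, and Myc a factor that promotes growth. Ccn1 and Ccn2 encode secreted matricellular proteins. Secreted and membrane proteins are usually made on ER-bound ribosomes, to which a hydrophobic signal or membrane segment directs the nascent chain, while nuclear factors lack such a segment. Many of these mRNAs are short-lived and carry AU-rich elements in the 3′ UTR.

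The coding starts of both CCN genes and of 2 AP-1 genes are shown because they separate the secreted from the nuclear members. Each line is the first 25 codons from the GENCODE annotation on GRCm38, a different build from the GRCm39 named in the submitters' processing notes, with codons for alanine, cysteine, phenylalanine, isoleucine, leucine, methionine and valine after the start codon in capitals.
Ccn1: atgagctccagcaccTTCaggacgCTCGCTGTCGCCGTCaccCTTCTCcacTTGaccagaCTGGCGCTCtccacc
Ccn2: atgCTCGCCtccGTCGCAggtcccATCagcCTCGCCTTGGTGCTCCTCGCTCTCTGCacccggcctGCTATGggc
Jun: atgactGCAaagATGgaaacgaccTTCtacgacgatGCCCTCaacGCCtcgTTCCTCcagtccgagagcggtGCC
Fos: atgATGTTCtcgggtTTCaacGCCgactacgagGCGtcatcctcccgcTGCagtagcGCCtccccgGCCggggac
The Ccn1 codons lie on the minus strand in 2 exon blocks, chr3:145649730-145649792 and chr3:145649424-145649435. Those of Ccn2 lie on the plus strand in 2 blocks, chr10:24595726-24595788 and chr10:24595876-24595887. Jun, a single-exon gene, starts at chr4:95051197-95051271 on the minus strand, and Fos at chr12:85474040-85474114 on the plus strand.

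An unbroken run of 9 capital codons marks the Ccn2 start and one of 5 the Ccn1 start, whereas no other member had a run above 3 in this window. The most hydrophobic 19-residue stretch of the whole protein, on the Kyte-Doolittle scale where 1.6 was taken as the threshold, scored 2.30 for Ccn2 and 2.21 for Ier3, an early-response survival regulator. All other members stayed under that threshold, at 1.46 for Ccn1, 1.28 for Jun, 1.17 for Fos, 1.15 for Atf3, 1.03 for Myc, 0.932 for Ier2, 0.716 for Egr1 and 0.537 for Junb.

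The depth was 38092178 to 56522114 reads assigned to genes per library. Each member had at least 166 reads in every library, the lowest being Atf3 and the highest Egr1, with up to 19571. ER-bound RNA of scramble replicate 3 and whole-cell RNA of Lsg1 replicate 3 stood apart in 1 gene ID, ENSMUSG00000119584.1, which the gene names used here left unnamed. These 2 libraries had 18469 and 15604 CPM, where CPM is the read count scaled to library size, and every other library had 1115 to 4143 CPM. They also had the largest shares of reads without a gene feature. These were 5.11% against 2.65% to 3.10% in other ER-bound libraries, and 5.26% against 4.10% to 4.40% in other whole-cell libraries. All 10 embryonic stem cell markers were present, summing to 8357 to 11296 CPM. Of 12 fibroblast markers 6 reached 1 CPM, with sums of 88.9 to 96.8 CPM in ER-bound and 61.0 to 63.8 CPM in whole-cell RNA after Lsg1 siRNA, and of 84.2 to 93.8 CPM in ER-bound and 61.5 to 64.8 CPM in whole-cell RNA after scramble siRNA. Postn, Dcn and Lum were under 0.05 CPM, while Thy1 averaged 20.9 to 46.0, Col5a1 19.5 to 26.6, Tagln 8.75 to 12 and Col1a1 4.30 to 6.26 CPM over the 4 groups. For Lsg1 against scramble siRNA in ER-bound RNA, edgeR called 4.01% of all genes tested, 2.63% higher and 1.38% lower. Of 10 stem cell markers 3 were called lower and 0 higher. These were Nanog at -0.18 (edgeR adjusted p = 0.03), Tfcp2l1 at -0.20 (edgeR adjusted p = 0.032) and Dppa5a at -0.11 (edgeR adjusted p = 0.036) on the log2 scale. The other stem cell markers lay on both sides of 0, from -0.07 to 0.15, and the median of the list was -0.06. Of the other markers tested, 0 of 9 fibroblast, 0 of 5 endoderm, 0 of 6 mesoderm and 0 of 3 neural markers were called. In whole-cell RNA no marker of any of these lists was called for the siRNA, where edgeR called 0.00% of all genes tested. The knockdown target Lsg1 had 35.4, 42.5 and 52.5 CPM in ER-bound RNA after Lsg1 siRNA against 142, 149 and 151 CPM after scramble siRNA. In whole-cell RNA it had 83.5, 96.7 and 114 CPM after Lsg1 siRNA and 136, 144 and 149 CPM after scramble siRNA, so no libraries of the siRNA groups overlapped in either fraction. The log2 fold change of Lsg1 was -1.77 (edgeR adjusted p = 6.3e-08) in ER-bound RNA and -0.55 (edgeR adjusted p = 0.245, not called) in whole-cell RNA.

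Levels between genes were compared only per kilobase of the longest annotated transcript. In whole-cell RNA of scramble cells Ier2 was the most abundant member at 166 ± 1.22 CPM per kb (SD, n = 3 here and in the next sentences), followed by Egr1 at 70.3 ± 2.87 CPM per kb. Junb at 38.3 ± 0.417 and Myc at 36.1 ± 1.68 CPM per kb came next. Ccn2 had 9.98 ± 0.404, Ier3 9.07 ± 0.274, Fos 8.71 ± 0.453 and Ccn1 7.73 ± 0.456 CPM per kb. Jun at 3.69 ± 0.226 and Atf3 at 2.30 ± 0.319 CPM per kb were the lowest. Only Ier3 and Fos were neighbours whose means lay closer than the sum of their SDs.

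**Figure D1:**
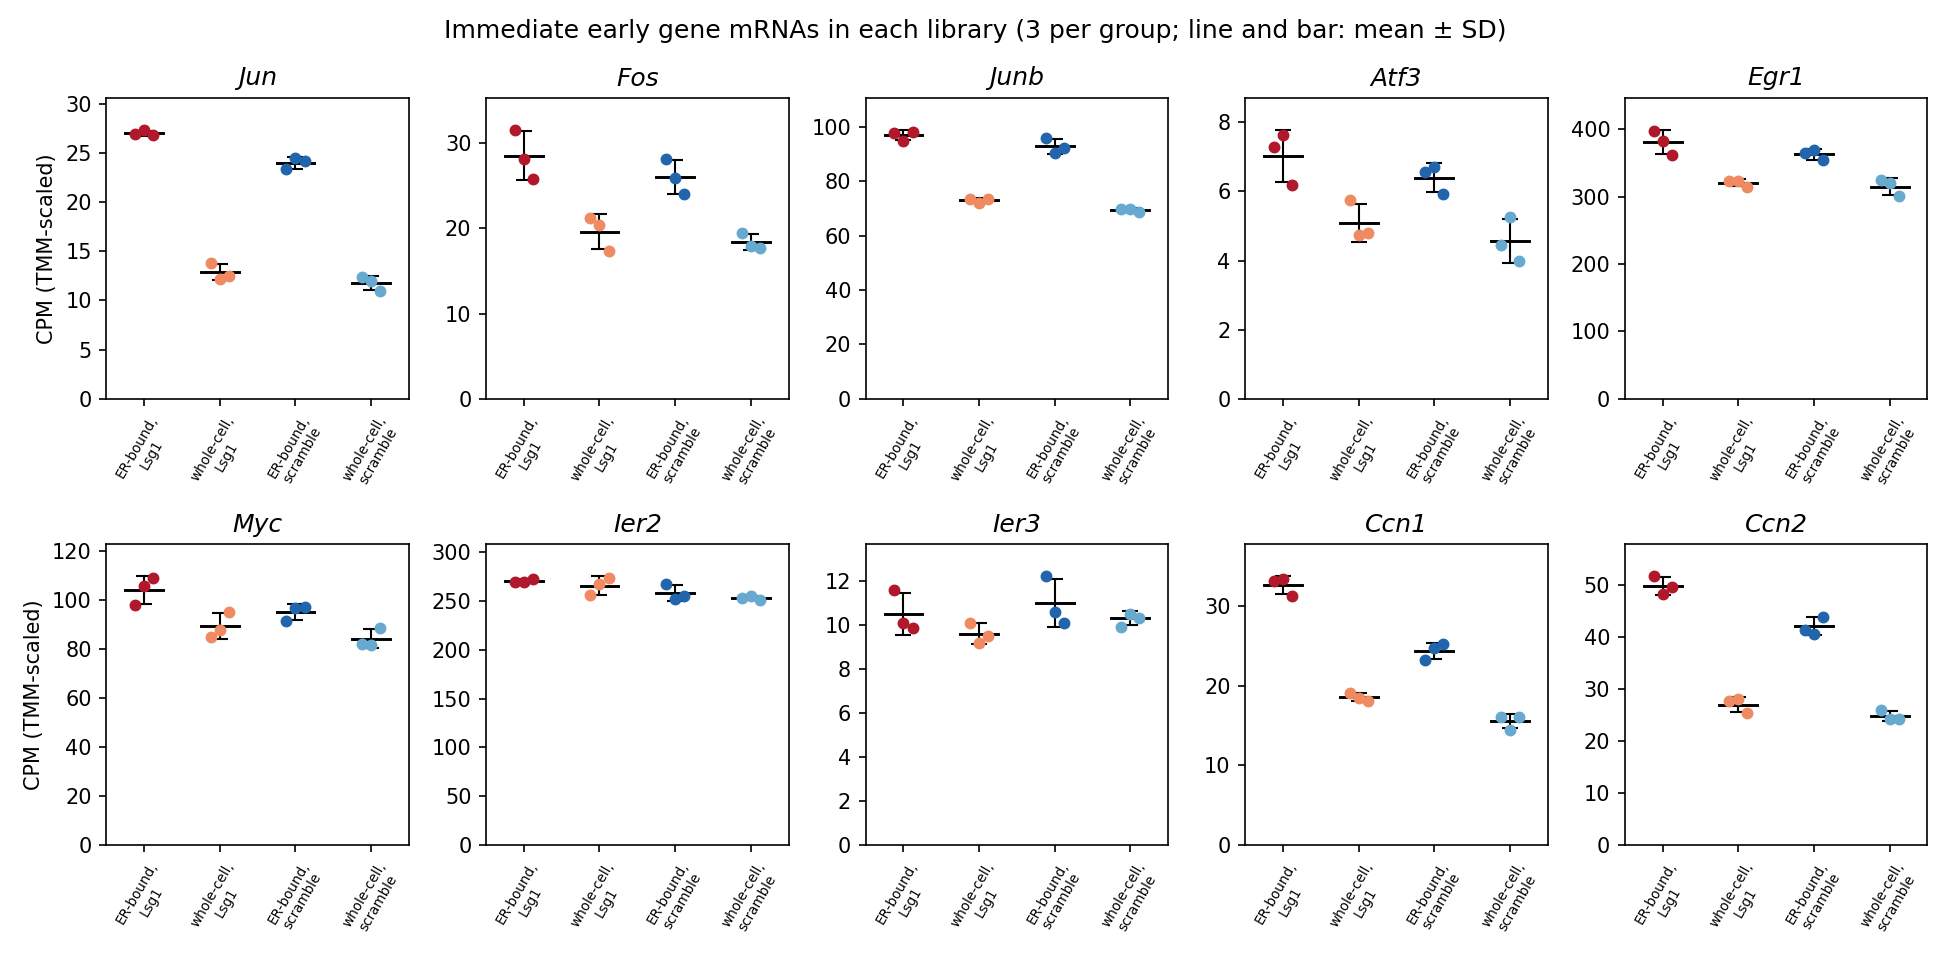
Level of each immediate early gene in CPM, scaled by trimmed mean of M values (TMM), on linear axes that start at 0. Points are the 3 libraries of each group, and lines and bars are the mean ± SD; ER-bound libraries lie above whole-cell ones without overlap for every gene except Ier2 and Ier3.

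The comparison of ER-bound with whole-cell RNA asked which transcripts were over-represented on ribosomes at the ER. Of the 10 members 8 were higher in ER-bound RNA after Lsg1 siRNA and the same number after scramble siRNA (edgeR quasi-likelihood test, Benjamini-Hochberg adjusted p under 0.05), with Jun, Ccn2 and Ccn1 the farthest from 0. Of all 17702 genes tested 60.3% were called after Lsg1 siRNA (30.6% higher and 29.8% lower) and 58.9% after scramble siRNA (29.8% higher and 29.1% lower). The same 8 members had all 3 ER-bound libraries above all 3 whole-cell libraries, as did 33.0% of all genes after Lsg1 siRNA and 32.6% after scramble siRNA. The member median of the log2 fold change was 0.442 after Lsg1 siRNA and 0.455 after scramble siRNA, beside 0.0226 and 0.0296 over all genes tested. The samples hold no RNA of all ribosomes together, so a transcript's place at the ER and its overall share on ribosomes cannot be told apart, and in these bulk samples neither can fewer cells with a transcript and less of it per cell.

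Jun, the major AP-1 partner of Fos, had 26.9, 27.3 and 26.8 CPM in ER-bound RNA against 13.8, 12.2 and 12.5 CPM in whole-cell RNA after Lsg1 siRNA. After scramble siRNA it had 23.4, 24.5 and 24.2 CPM in ER-bound and 12.4, 12 and 11 CPM in whole-cell RNA. The lowest ER-bound library was thus above the highest whole-cell library in both, and the ratio within the 6 lysates ran from 0.92 to 1.16 on the log2 scale. The log2 fold change was 1.08 ± 0.05 (SE) after Lsg1 siRNA, with an edgeR adjusted p of 5.4e-12, and 1.03 ± 0.05 after scramble siRNA, with an edgeR adjusted p of 1.5e-11.

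Fos, which binds DNA only as a dimer with a partner such as Jun, had 31.5, 28.1 and 25.8 CPM in ER-bound RNA against 21.2, 20.4 and 17.3 CPM in whole-cell RNA after Lsg1 siRNA. After scramble siRNA it had 28.1, 25.9 and 24.0 CPM in ER-bound and 19.4, 17.9 and 17.7 CPM in whole-cell RNA. No groups overlapped, and the log2 fold changes were 0.54 ± 0.08 (SE, edgeR adjusted p = 9.5e-06) after Lsg1 siRNA and 0.51 ± 0.08 (edgeR adjusted p = 2.4e-05) after scramble siRNA. Replicate 1 was the highest and replicate 3 the lowest Fos library in all 4 groups, and the ratio within a lysate varied less, from 0.44 to 0.58.

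Junb, a weaker AP-1 activator, had 97.8, 94.8 and 98.1 CPM in ER-bound RNA against 73.4, 72.1 and 73.6 CPM in whole-cell RNA after Lsg1 siRNA. After scramble siRNA the values were 95.9, 90.2 and 92.2 CPM in ER-bound and 69.9, 69.6 and 68.5 CPM in whole-cell RNA. Its libraries did not overlap and its lysate ratios spanned only 0.37 to 0.46, around log2 fold changes of 0.41 ± 0.03 (SE, edgeR adjusted p = 3.6e-09) after Lsg1 siRNA and 0.42 ± 0.03 (edgeR adjusted p = 2.8e-09) after scramble siRNA.

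Atf3, a stress-induced repressor, was the scarcest member, with 7.29, 7.62 and 6.20 CPM in ER-bound RNA against 5.74, 4.75 and 4.79 CPM in whole-cell RNA after Lsg1 siRNA. After scramble siRNA it had 6.56, 6.72 and 5.92 CPM in ER-bound and 4.44, 5.25 and 4.00 CPM in whole-cell RNA. It did not overlap between fractions but varied most among lysates, from 0.34 to 0.68, and its log2 fold changes were 0.48 ± 0.11 (SE, edgeR adjusted p = 0.00073) after Lsg1 siRNA and 0.49 ± 0.11 (edgeR adjusted p = 0.00074) after scramble siRNA.

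Egr1 and Myc showed the smallest called differences. Egr1 had 397, 383 and 362 CPM in ER-bound RNA against 324, 324 and 314 CPM in whole-cell RNA after Lsg1 siRNA, and 365, 370 and 354 CPM against 325, 320 and 301 CPM after scramble siRNA. Its log2 fold changes were 0.25 ± 0.04 (SE, edgeR adjusted p = 9.1e-06) after Lsg1 siRNA and 0.20 ± 0.04 (edgeR adjusted p = 8.1e-05) after scramble siRNA. Myc had 98.1, 106 and 109 CPM in ER-bound RNA against 85.0, 87.8 and 95.4 CPM in whole-cell RNA after Lsg1 siRNA, and 91.7, 96.7 and 97.2 CPM against 82.3, 81.8 and 88.8 CPM after scramble siRNA. For both genes the ER-bound library was higher in each of the 6 lysates. The Myc differences were 0.22 ± 0.05 (SE, edgeR adjusted p = 0.00062) after Lsg1 siRNA and 0.17 ± 0.05 (edgeR adjusted p = 0.0048) after scramble siRNA. Without whole-cell scramble replicate 1 the scramble value of Myc was 0.14 and an edgeR adjusted p of 0.0545.

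Ier2, a nuclear regulator of early-response transcription, had 270, 270 and 273 CPM in ER-bound RNA against 256, 268 and 274 CPM in whole-cell RNA after Lsg1 siRNA. After scramble siRNA it had 268, 252 and 255 CPM in ER-bound and 253, 255 and 251 CPM in whole-cell RNA. The fractions overlapped in both, and the 95% interval of the log2 difference was -0.04 to 0.09 after Lsg1 siRNA (edgeR adjusted p = 0.510) and -0.03 to 0.09 after scramble siRNA (edgeR adjusted p = 0.450). Ier3 had 11.6, 10.1 and 9.87 CPM in ER-bound RNA against 10.1, 9.18 and 9.48 CPM in whole-cell RNA after Lsg1 siRNA, and 12.2, 10.6 and 10.1 CPM against 9.92, 10.5 and 10.3 CPM after scramble siRNA. It overlapped as well, with intervals of -0.01 to 0.29 (edgeR adjusted p = 0.136) after Lsg1 siRNA and -0.05 to 0.25 (edgeR adjusted p = 0.303) after scramble siRNA, although its 19-residue stretch scored above the threshold.

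Of the secreted members, Ccn1 had 33.2, 33.4 and 31.3 CPM in ER-bound RNA against 19.1, 18.5 and 18.1 CPM in whole-cell RNA after Lsg1 siRNA. After scramble siRNA it had 23.2, 24.7 and 25.2 CPM in ER-bound and 16.1, 14.5 and 16.1 CPM in whole-cell RNA. The fractions were apart in both, by 0.82 ± 0.05 on the log2 scale (SE, edgeR adjusted p = 7.6e-11) after Lsg1 siRNA and 0.64 ± 0.05 (edgeR adjusted p = 3.9e-09) after scramble siRNA. Ccn2 had 51.6, 48.2 and 49.6 CPM in ER-bound RNA against 27.7, 28.1 and 25.3 CPM in whole-cell RNA after Lsg1 siRNA, and 41.4, 40.6 and 43.9 CPM against 26.0, 24.3 and 24.2 CPM after scramble siRNA. Its log2 fold changes were 0.88 ± 0.05 (SE, edgeR adjusted p = 1.6e-11) after Lsg1 siRNA and 0.76 ± 0.05 (edgeR adjusted p = 1.9e-10) after scramble siRNA. The nuclear factor Jun therefore had log2 fold changes at least as large as those of both secreted proteins, a comparison that was not tested.

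GC content and transcript length differed between genes and moved with the fraction difference. When the trend of each library on both was removed, the member median was 0.208 after Lsg1 siRNA and 0.202 after scramble siRNA, beside -0.0399 and -0.0283 over all genes, and 7 members stayed higher in both comparisons. Jun was then at 0.87 after Lsg1 siRNA and 0.84 after scramble siRNA, Ccn2 at 0.73 and 0.62, Ccn1 at 0.58 and 0.41, Fos at 0.32 and 0.29, Egr1 at 0.17 and 0.14 and Junb at 0.14 and 0.13. Atf3 was at 0.25 (edgeR adjusted p = 0.0469) after Lsg1 siRNA and 0.26 (edgeR adjusted p = 0.0431) after scramble siRNA. Myc moved to -0.01 after Lsg1 siRNA and -0.05 after scramble siRNA and was no longer called. Ier2, with a GC content of 60.9% second to Junb at 62.6%, moved to -0.26 after Lsg1 siRNA (edgeR adjusted p = 9.23e-08) and -0.27 after scramble siRNA (edgeR adjusted p = 8.26e-08), and so was lower in ER-bound RNA. Ier3 moved to -0.12 and -0.17 and was not called, and with the lysate as a block as well its scramble value had an edgeR adjusted p of 0.0297. Scaling by library totals alone shifted the median of all genes to 0.111 after Lsg1 siRNA and 0.108 after scramble siRNA, and the genes called higher and lower to 6686 and 4142 after Lsg1 siRNA (5412 and 5271 with TMM) and to 6438 and 4144 after scramble siRNA (5279 and 5143 with TMM). On that scale Ier2 was called higher in both comparisons, at 0.11 each, a value close to the shift of all genes, and Ier3 after Lsg1 siRNA, at 0.23.

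**Figure D2:**
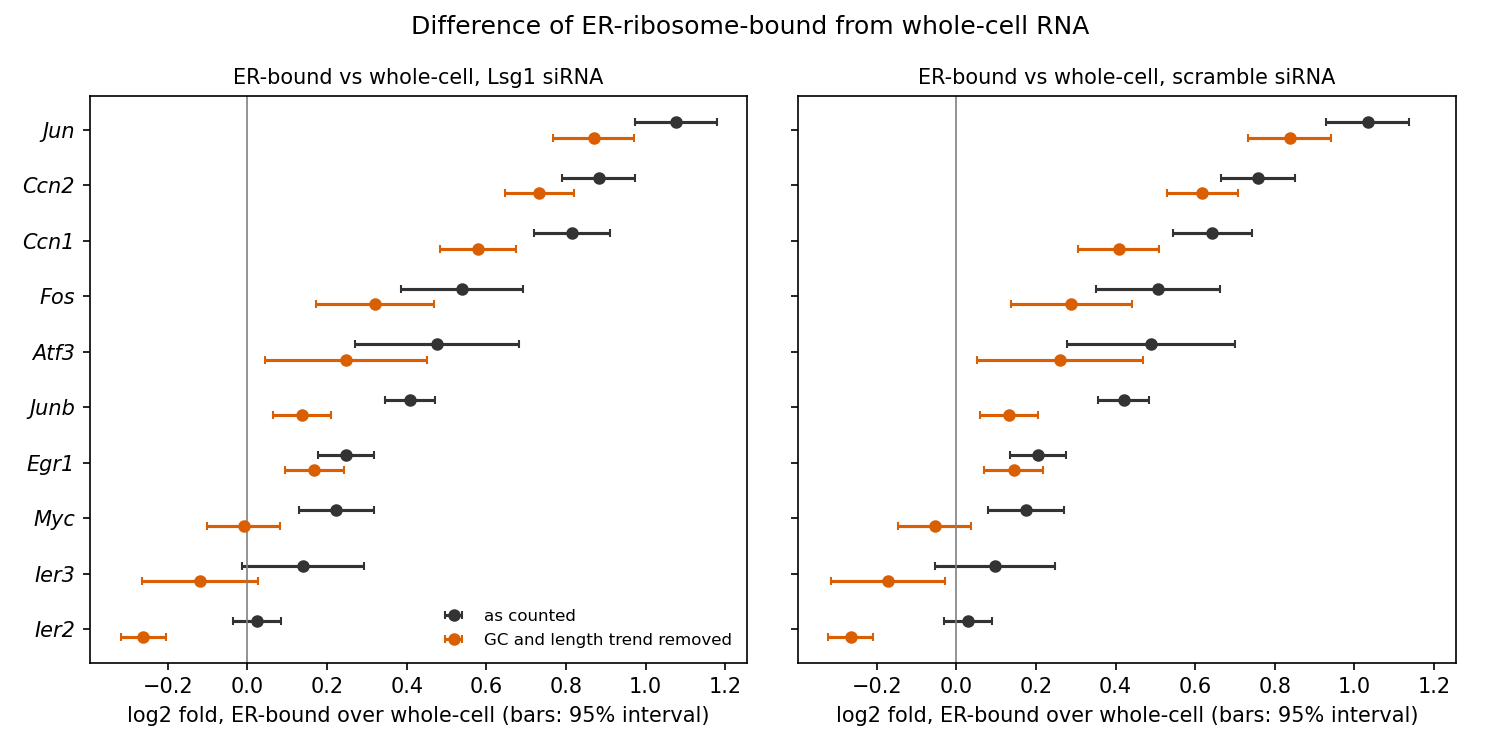
Log2 fold change of ER-bound over whole-cell RNA for the 10 members after Lsg1 siRNA (left) and scramble siRNA (right), with 95% intervals, as counted (dark) and with each library's trend on GC content and length removed (orange). Jun is the highest in all 4 sets of values, and Ier2 lies at 0.02 and 0.03 as counted and at -0.26 and -0.27 with the trend removed.

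Members were then placed among all tested genes with an annotated coding sequence, by whether it encodes a 19-residue stretch above the threshold or a run of 5 hydrophobic codons near the start. Of 5175 genes with a stretch, 55.0% were higher in ER-bound RNA after Lsg1 siRNA and 51.9% after scramble siRNA, while of 8646 genes with neither feature the shares were 22.5% and 22.8%. Jun, Fos, Atf3, Junb, Egr1, Myc and Ier2 belong to the genes with neither. Among those, 125 genes exceeded Jun after Lsg1 siRNA and 137 after scramble siRNA, which placed Jun above 98.5% and 98.4% of them. Fos stood above 94.0% and 93.6%, Atf3 above 92.6% and 93.3%, and Junb above 90.9% and 91.6% of the same genes. Egr1 was above 82.8% and 79.0%, Myc above 81.1% and 76.3%, and Ier2 above 60.9% and 59.8%. Among the 5965 genes with a stretch or run, Ccn2 stood above 82.9% and 80.4%, Ccn1 above 79.2% and 73.6%, and Ier3 above 39.2% and 37.3%. These positions are descriptions on genes of the same libraries, on the values as counted. They were not worked out with the GC and length trend removed.

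**Figure D3:**
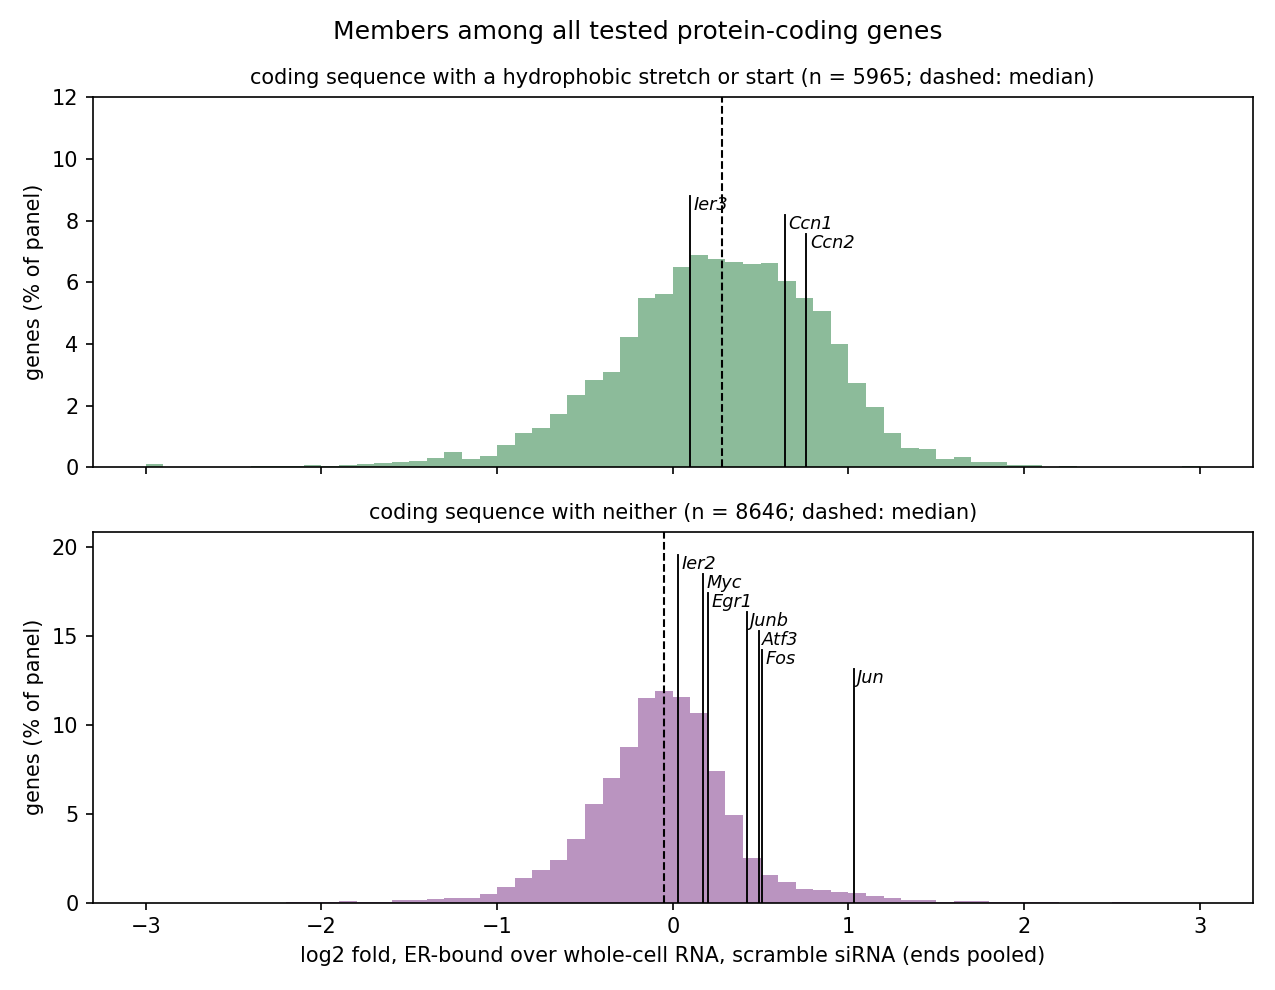
Distribution of the log2 fold change of ER-bound over whole-cell RNA after scramble siRNA for genes whose coding sequence holds a hydrophobic stretch or start (top, 5965 genes) and for genes with neither (bottom, 8646 genes). Values are as counted, with no trend on GC content and length removed. Bars give the percentage of genes per bin, dashed lines the medians of 0.28 and -0.05, and black lines the members; Jun lies far in the right tail of the lower panel.

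The AU-rich heptamer TATTTAT, searched on the transcript strand, occurred 4 times in the 3′ UTR of Ier3, 2 times each in Fos and Ccn1 and once each in Jun and Atf3, and was not found in Junb, Egr1, Ier2, Ccn2 or Myc. Among genes with a 3′ UTR within 20% of the length of that of Jun, 30.2% held it, and for Fos 20.3%. The Fos and Jun windows are shown with the heptamer in capitals, as the AP-1 pair of the 3 members, with Atf3, that hold it and have neither hydrophobic feature.
Fos: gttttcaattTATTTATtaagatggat
Jun: tgcttgtgcaTATTTATaatagcgttc
As counted, genes with neither hydrophobic feature but with this heptamer had a median log2 fold change of -0.16 after Lsg1 siRNA and -0.15 after scramble siRNA. Of these genes 15.1% were higher in each comparison. Jun, Fos and Atf3 thus stood on the other side of 0 from the median of the genes that share both properties.

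The comparison of Lsg1 with scramble siRNA in ER-bound RNA asked whether knockdown of Lsg1 altered what ER-labelled ribosomes carried. Ccn1 and Ccn2, the secreted members, rose, and no other member passed the test; the 3 stem cell markers named above were lower in the same comparison, and their part in the result was not tested. These 2 of 10 stand beside 4.01% of all genes tested, 2.63% higher and 1.38% lower. Ccn1 rose by 0.42 ± 0.05 on the log2 scale (SE, 1.34-fold, edgeR adjusted p = 6.2e-05) and Ccn2 by 0.25 ± 0.04 (1.19-fold, edgeR adjusted p = 0.0041). For both genes the 3 ER-bound libraries after Lsg1 siRNA, given above, lay over all 3 after scramble siRNA.

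The member median was 0.133 beside 0.00875 over all genes. Jun, Myc and Ier2 also had all 3 Lsg1 libraries above all 3 scramble libraries, a pattern seen in 12.5% of all genes, but did not pass the test. Jun was at 0.17 ± 0.05 (SE, edgeR adjusted p = 0.059) and Myc at 0.13 ± 0.05 (edgeR adjusted p = 0.145). Ier2 was at 0.07 ± 0.03 (edgeR adjusted p = 0.258). Fos at 0.13, Atf3 at 0.14, Egr1 at 0.07, Junb at 0.06 and Ier3 at -0.06 overlapped between siRNA groups. The genes called in all were 465 higher and 245 lower, or 392 and 373 with the GC and length trend removed, when Ccn1 was at 0.40 and Ccn2 at 0.23 and both were still called. The 2 calls held in each fit that left out 1 library, and without both libraries that stood apart, at 0.43 for Ccn1 and 0.27 for Ccn2.

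In whole-cell RNA no member was called for the siRNA, where edgeR called 0.00% of all genes. Of the 17702 genes 731 had an unadjusted p under 0.05, 5 of them members, and DESeq2 called 5 genes. Ccn1 was the member with the largest difference, 0.25 ± 0.05 on the log2 scale (SE, edgeR adjusted p = 0.473), with no overlap between the Lsg1 and the scramble libraries. Without the filter on low counts it was called, with an edgeR adjusted p of 0.0297. Junb and Ier2, both at 0.07, were the other members whose Lsg1 libraries all lay above the scramble ones, which held for 5.23% of all genes. Ccn2 was at 0.12, Jun at 0.13, Atf3 at 0.15, Fos at 0.10, Myc at 0.08, Egr1 at 0.02 and Ier3 at -0.10.

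**Figure D4:**
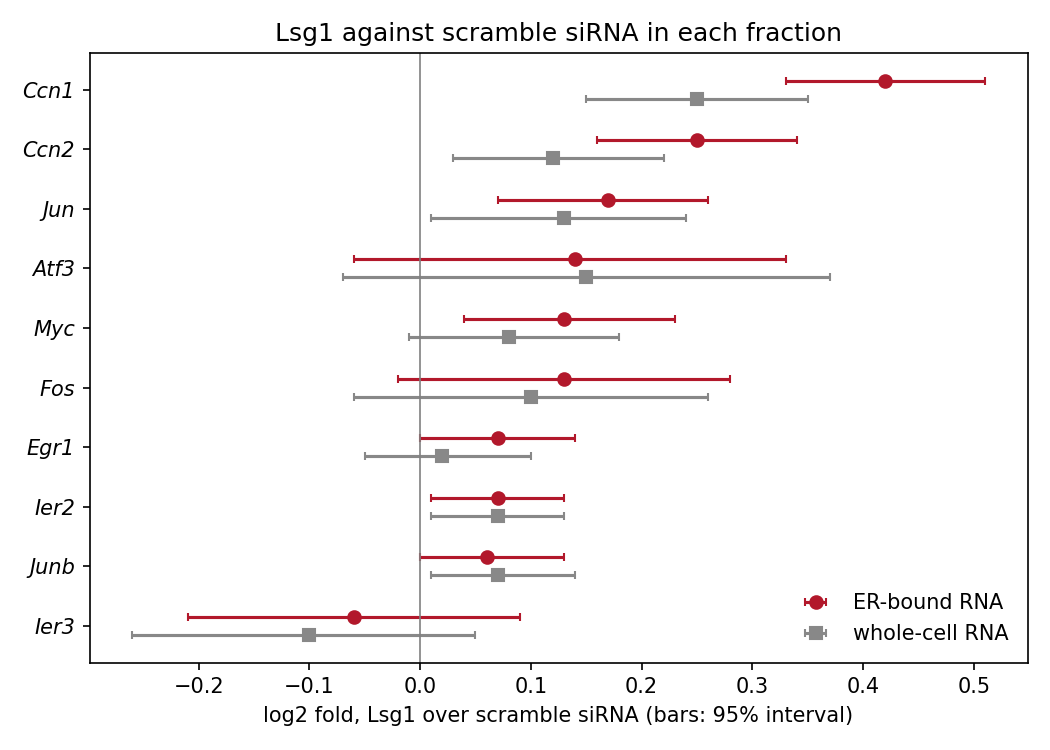
Log2 fold change of Lsg1 over scramble siRNA for the 10 members in ER-bound RNA (red circles) and whole-cell RNA (grey squares), with 95% intervals that carry no adjustment for multiple tests. Ccn1 is the highest in both, at 0.42 and 0.25, and only Ier3 is below 0 in both.

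Whether the siRNA difference itself differed between ER-bound and whole-cell RNA was tested as an interaction. No member passed, where 0.0226% of all genes did (0.0113% higher and 0.0113% lower), 4 in number, among them Lsg1 at -1.22 ± 0.15 (SE, edgeR adjusted p = 0.0013). Ccn1, the 1 member with an unadjusted p under 0.05, had a difference of 0.17 ± 0.07 with a 95% interval of 0.03 to 0.31 (edgeR adjusted p = 0.668), and Ccn2 one of 0.12 ± 0.07 with an interval of -0.01 to 0.26 (edgeR adjusted p = 0.791). Myc was at 0.05, Jun, Egr1 and Ier3 at 0.04, Fos at 0.03, Ier2 at -0.0038 and Junb and Atf3 at -0.01. The rise of Ccn1 and Ccn2 in ER-bound RNA was therefore not shown to differ from their change in whole-cell RNA. The comparisons of fraction and of siRNA share libraries.

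The counts for related genes stand beside the shares of all genes: 30.6% higher and 29.8% lower in ER-bound than whole-cell RNA after Lsg1 siRNA, 29.8% and 29.1% after scramble siRNA, and 2.63% and 1.38% for the siRNA in ER-bound RNA. Differences between lists were not tested, and the values of related genes are as counted, without removal of the GC and length trend. Of 46 other early genes tested (48 listed), 21 were higher and 3 lower in ER-bound than whole-cell RNA after Lsg1 siRNA, and 23 higher and 5 lower after scramble siRNA, with medians of 0.15 and 0.16. Btg2, an antiproliferative gene, averaged 65.8 CPM in ER-bound and 26.0 CPM in whole-cell RNA after Lsg1 siRNA, a log2 fold change of 1.34 ± 0.05 (SE, edgeR adjusted p = 2e-13). Plk2, a polo-like kinase, was at 1.09 ± 0.07 and Phlda1 at 0.92 ± 0.07 in the same comparison. For Lsg1 against scramble siRNA in ER-bound RNA, 5 of these 46 rose and 2 fell, with a median of 0.02. Btg2 rose by 0.45 ± 0.05 (SE, edgeR adjusted p = 4.4e-05) and Dusp6, an ERK phosphatase, by 0.24 ± 0.04 (edgeR adjusted p = 0.002), while Id2 fell by 0.35 on the log2 scale (edgeR adjusted p = 0.0018).

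A list of 21 regulators held ternary complex factors, MRTF, the ERK cascade, CREB, YAP and TEAD, which act upstream of members, and the Egr1 corepressors Nab1 and Nab2. Of these 21 genes 2 were higher and 15 lower in ER-bound RNA after Lsg1 siRNA, and 2 higher and 14 lower after scramble siRNA, with medians of -0.24 and -0.25. Mrtfb, a coactivator of serum response factor, had log2 fold changes of -0.66 ± 0.05 and -0.64 ± 0.05 (SE), and Rps6ka3, a kinase downstream of ERK, -0.53 ± 0.04 and -0.52 ± 0.04. After Lsg1 siRNA 2 of the 21 were lower in ER-bound RNA than after scramble siRNA, Map2k1 at -0.15 and Nab2, a corepressor of Egr1, at -0.33.

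Of 15 other AP-1 and leucine-zipper genes 4 were higher and 3 lower in ER-bound RNA after Lsg1 siRNA and 6 and 3 after scramble siRNA. Atf2, a partner of Jun, was lower, at -0.51 ± 0.04 and -0.61 ± 0.04 (SE), while Jund was higher, at 0.23 and 0.21. Of 11 partners and relatives of Myc 1 was higher and 5 lower after Lsg1 siRNA and 2 and 4 after scramble siRNA, with Mga, a Max-binding repressor, at -1.88 in both. Of 10 tested CCN and matrix-linked genes (12 listed), 4 were higher and 3 lower after Lsg1 siRNA and 3 and 5 after scramble siRNA. Cytoplasmic Amotl1 was at -0.72 ± 0.06 and -0.87 ± 0.06 (SE) in the 2 comparisons. Ccn3, of the CCN family, was higher in both, at 1.29 ± 0.18 and 1.19 ± 0.18 (SE). Its level was low, with averages of 2.2 CPM in ER-bound and 0.901 CPM in whole-cell RNA after Lsg1 siRNA. In ER-bound RNA the receptor kinase gene Axl was the 1 of these 10 that passed for the siRNA, at 0.44 ± 0.09 (SE, edgeR adjusted p = 0.012).

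Of 14 factors that bind or decay AU-rich mRNAs 7 were higher and 5 lower after Lsg1 siRNA and 8 and 3 after scramble siRNA, with Tial1 at 0.42 and 0.39 and Cnot1, the deadenylase scaffold, at -1.61 and -1.73. After Lsg1 siRNA 1 of them, Cnot7, was lower in ER-bound RNA than after scramble siRNA, at -0.16. Of 12 stress genes 7 were higher and 3 lower in each fraction comparison, with the chaperone gene Hspa1a at 0.80 ± 0.07 after Lsg1 siRNA and 0.79 ± 0.07 after scramble siRNA (SE). For the siRNA 1 stress gene passed in ER-bound RNA, Hspa1b, at -0.23 (edgeR adjusted p = 0.047). The part of stress during handling in the members' levels was not tested. No gene of these lists passed for the siRNA in whole-cell RNA or for the interaction, where 0.00% and 0.0226% of all genes did.

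The genes nearest to each member in their profile over the 12 libraries were sought among 10646 genes with a mean of at least 5 CPM, by the root mean square difference of centred log2 CPM. Commd3, Mpzl1 and Mxra7 were nearest to Jun, at 0.062 to 0.066, and Nptxr, Slc48a1 and Ccdc3 to Ccn1, at 0.077 to 0.091. Ccn2 was the member nearest to Ccn1, at 0.105 and order 11 of all genes, while Ccn1 was the member nearest to Ccn2 at order 229. For the remaining members the nearest member came at order 40 (Fos for Atf3) to 3132 (Myc for Ier2). Gpc4, Tmem127 and Susd6 were nearest to Ccn2, and Aamdc, Gabarapl1 and Aaed1 to Fos. Ppp1r11, Ndufb7 and Cox5b were nearest to Junb, and Cept1, Mettl27 and Ninj1 to Atf3. Nabp1, Ube2h and Terf1 were nearest to Egr1, and Gorasp1, Lasp1 and Cphx1 to Myc. Sbds, Vapb and Arpc5l were nearest to Ier2, and Aktip, Ppm1b and Sorl1 to Ier3.

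RefSeq promoter windows (GRCm38.p6, 250 bases before to 50 after the gene start) were matched by symbol for 6 members, Atf3, Ccn1, Fos, Ier3, Jun and Junb, but not for Ccn2, Egr1, Ier2 and Myc. The window of Ccn1, the member that changed most with the siRNA, is shown for chr3:145649936-145650235 on the minus strand, with motif matches in capitals.
Ccn1: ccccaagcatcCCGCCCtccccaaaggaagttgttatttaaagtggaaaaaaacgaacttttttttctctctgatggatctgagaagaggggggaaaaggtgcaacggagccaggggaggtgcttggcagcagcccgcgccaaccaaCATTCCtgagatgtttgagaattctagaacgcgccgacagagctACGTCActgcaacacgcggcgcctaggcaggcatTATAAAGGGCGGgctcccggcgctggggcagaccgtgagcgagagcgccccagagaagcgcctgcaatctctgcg
On both strands, GGAATG, the core of the TEAD motif, matched at -103 and TGACGT, the core of the CREB motif, at -59 from the gene start. TATAAA matched at -25 and GGGCGG at -239 and -19. Of 32851 promoter windows 14.7% held GGAATG, 7.51% TGACGT, 13.6% TATAAA and 35.7% GGGCGG. Atf3 and Fos also held TGACGT, Fos and Junb TATAAA, and all but Junb of the 6 held GGGCGG. The full TGACGTCA, TGANTCA and the CArG box were in none of the 6 windows, and in 1.79%, 7.81% and 1.63% of all windows. TGACGT lies inside TGACGTCA, and no other pair of these motifs contains the other.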

How the data were processed

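The submitters' processing notes name STAR 2.7.9a, HTSeq 0.11.2, DESeq2 and GRCm39, and the values deposited are raw counts of reads per gene. For counting, neither strand setting nor annotation release is stated in any source used here. Libraries were made from 750 ng of RNA with poly-A selection, a directional kit and 9 PCR cycles, per the labels' protocols. Gene IDs were named by Ensembl ID (94% of IDs and 99.5% of reads). Rows that name no gene were left out: 2.65% to 5.26% of reads without a feature, 6.09% to 8.23% not unique and 0.970% to 1.16% ambiguous.

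Here the counts of all 12 libraries entered 1 model (edgeR 4.0.16 in R 4.3.3, TMM scaling, filterByExpr, 17702 genes, residual degrees of freedom 8, coefficient of biological variation 4.42%), with 1 mean per group and Benjamini-Hochberg adjustment over all genes at 0.05. Contrasts were ER-bound against whole-cell RNA within each siRNA, Lsg1 against scramble siRNA within each fraction, and their interaction. The code was tested on simulated data. Same-numbered fractions come from the same lysate, per the series' design text, and their deviations from group means correlated at 0.0024 to 0.138. Intervals are of the fitted log2 fold change and use its SE with a normal quantile, which makes them narrower than a t quantile would. SDs are over 3 libraries. The labels call these libraries biological replicates without saying whether they were separate cultures, so p-values measure the spread between these samples. Alternatives were DESeq2 1.42.0, limma-voom (limma 3.58.1), other scalings and filters, a replicate block, removal of each library's spline trend on GC content and length, and leaving out libraries. Each member had at least 166 reads per library, so counting error weighs most on Atf3.

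All members are named in every comparison, up to 3 genes of each other list by the smallest p, and other genes of those lists by counts; for cell type markers, levels and calls for the siRNA are given, and those named were chosen after their values were seen; 1 gene that this rule names is not reported here. The members and lists were chosen with earlier results of these data known.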

Additional observations from a re-analysis of the deposited data

How the results depend on the processing

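The alternatives below changed 1 choice at a time, except the replicate block joined with GC and length removal and the 2 libraries left out together. In the fraction comparisons the number of members called stayed between 7 and 10 in all of them: 10 after Lsg1 siRNA and 9 after scramble siRNA with library totals, 7 to 8 after scramble siRNA leaving out 1 library, and 8 in each with the lysate block, which changed no member's call there. Removing the trend on GC and length turned the sign of Ier2 at -0.261 and -0.266, Ier3 at -0.119 and -0.171 and Myc at -0.010 and -0.054 (after Lsg1 and scramble siRNA), and with the replicate block as well Ier2 at -0.261 and -0.266, Ier3 at -0.128 and -0.174 and Myc at -0.0091 and -0.053. Leaving out 1 library, Ier2 ranged from -0.029 to 0.040 after Lsg1 siRNA and from -0.0032 to 0.030 after scramble siRNA.

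For Lsg1 against scramble siRNA in ER-bound RNA, the 2 members called became 4 with a replicate block, with or without GC and length removal. The additions were Jun (0.17, edgeR adjusted p = 0.0146 with the block) and Myc (0.13, edgeR adjusted p = 0.00731); limma-voom added Jun (adjusted p = 0.042). Replicate numbers pair no siRNA samples by the labels: deviations of same-numbered libraries correlated at 0.173, 0.0073 and 0.144 in ER-bound and at 0.037, 0.039 and 0.097 in whole-cell RNA. The 710 genes called there became 375 in a fit of only the 2 groups, 1463 with the block and 1782 with block and trend removal. They ranged from 290 to 854 leaving out 1 library: 367, 290 and 432 without Lsg1 replicates 1, 2 and 3 and 312 without scramble replicate 2 of the ER-bound RNA. Leave-one-out values of Ier3 ran from -0.148 to 0.017.

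In whole-cell RNA 1 member (Ccn1) was called without a filter on low counts. The 0 genes called became 26 without that filter, 5 with DESeq2, 2 in a fit of only the 2 groups, 8 with the block, 1 with trend removal, 13 with both and 4 without the 2 libraries that stood apart, and ranged from 0 to 3 leaving out 1 library. Egr1 then ranged from -0.0027 to 0.041.

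For the interaction 0 members were called in each alternative run. The 4 genes became 59 without a filter, 18 with DESeq2, 10 with the block and 14 with block and trend removal, and ranged from 3 to 8 leaving out 1 library. Member values close to 0 changed sign: Ier2 to 0.0068 with library totals, 0.0044 with trend removal and 0.0048 with the block too; Junb to 0.0052 and 0.0054 in those last 2; and, without the 2 libraries that stood apart, Fos to -0.113, Egr1 to -0.0016 and Ier3 to -0.030. Leaving out 1 library gave -0.053 to 0.088 for Fos, -0.040 to 0.124 for Ier3, -0.043 to 0.010 for Junb, -0.134 to 0.064 for Atf3, -0.0041 to 0.086 for Jun, -0.040 to 0.020 for Ier2 and -0.0089 to 0.095 for Myc. The causes were not tested.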
